A study of Mus musculus with 28 samples.

Results

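The genes described here are 42 mouse genes of glycolysis and of the response to low oxygen, chosen by symbol and found as 1 row each among the 45706 rows of the expression tables. They comprise 6 genes of oxygen sensing, 4 of glucose uptake and phosphorylation, 13 glycolytic enzymes, 4 lactate enzymes and transporters, 5 regulatory kinases and 10 further hypoxia-induced genes. Their levels were measured by RNA sequencing in mIMCD-3 cells, a mouse inner medullary collecting duct epithelial line that came from an SV40-transgenic mouse. Of the 28 libraries, 4 each came from polyclonal WT cells, from the monoclonal line WT5 and from subclones 1 to 5. WT5 is a single clone sorted from polyclonal WT, and each subclone is a single clone sorted in turn from WT5 and expanded for weeks. All cells carried no genome edit and received no treatment, were grown in DMEM:F12 with serum in a humidified incubator with added CO2, and per the labels RNA was isolated 4 days after they were fully confluent. The labels and methods name no exposure to hypoxia.

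In glycolysis, glucose enters the cell through transporters such as Slc2a1, is phosphorylated by hexokinase and is broken down to pyruvate. Pyruvate either enters mitochondria, a step that the Pdk kinases restrain by phosphorylating pyruvate dehydrogenase, or is turned into lactate by lactate dehydrogenase and exported by monocarboxylate transporters. When oxygen is ample, the prolyl hydroxylases Egln1 and Egln3 mark the HIF alpha subunits Hif1a and Epas1 for destruction through Vhl. When oxygen is scarce, the alpha subunits persist, pair with Arnt and raise the transcription of many glycolytic genes, through sites with the core letters ACGTG or, with another first base, GCGTG. Renal medulla lies in a poorly oxygenated zone of the kidney, and its collecting ducts are known for a high glycolytic capacity.

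To show these letters in the genes on which the results turn, the 250 bases before the annotated start (the first start listed per gene, RefSeq, GRCm38.p6) are given for the 4 genes lower than WT5 in most subclones, Slc16a3, Ldha, Ankrd37 and P4ha1, and for the pair that differed most among subclones, Aldoc and Ak4. Each runs 5′ to 3′ on the gene's own strand, with both cores, on either strand, in capitals. The windows are chr11:120948817-120949066 (plus strand) for Slc16a3, chr7:46845554-46845803 (plus strand) for Ldha and chr8:45999851-46000100 (minus strand) for Ankrd37. Those of P4ha1, Aldoc and Ak4 are chr10:59323046-59323295, chr11:78322823-78323072 and chr4:101419039-101419288, all on the plus strand. The windows of Slc16a3, Ldha and Ankrd37 lie wholly inside the gene spans given with their results, so their starts are internal to those spans. Ldha and Aldoc have 2 listed starts each and Ak4 has 4, and only the first was searched.
Slc16a3: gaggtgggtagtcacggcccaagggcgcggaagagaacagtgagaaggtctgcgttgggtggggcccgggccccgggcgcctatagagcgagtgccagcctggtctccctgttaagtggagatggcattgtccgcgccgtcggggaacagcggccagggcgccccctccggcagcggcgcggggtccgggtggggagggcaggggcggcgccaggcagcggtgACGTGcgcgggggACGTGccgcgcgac
Ldha: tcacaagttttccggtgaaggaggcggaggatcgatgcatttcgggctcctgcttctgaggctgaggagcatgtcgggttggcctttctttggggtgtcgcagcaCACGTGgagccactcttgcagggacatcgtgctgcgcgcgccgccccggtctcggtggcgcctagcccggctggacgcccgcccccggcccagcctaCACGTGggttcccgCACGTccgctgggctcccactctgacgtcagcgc
Ankrd37: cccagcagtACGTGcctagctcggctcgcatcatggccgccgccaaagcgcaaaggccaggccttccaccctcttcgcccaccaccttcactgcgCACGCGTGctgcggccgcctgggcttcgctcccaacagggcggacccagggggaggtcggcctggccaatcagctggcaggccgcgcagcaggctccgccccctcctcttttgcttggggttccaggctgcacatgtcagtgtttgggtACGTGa
P4ha1: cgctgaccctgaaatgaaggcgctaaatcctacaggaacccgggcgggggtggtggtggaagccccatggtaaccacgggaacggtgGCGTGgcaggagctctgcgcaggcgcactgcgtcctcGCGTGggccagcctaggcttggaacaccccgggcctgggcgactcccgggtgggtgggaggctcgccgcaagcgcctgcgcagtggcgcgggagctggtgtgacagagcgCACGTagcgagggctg
Aldoc: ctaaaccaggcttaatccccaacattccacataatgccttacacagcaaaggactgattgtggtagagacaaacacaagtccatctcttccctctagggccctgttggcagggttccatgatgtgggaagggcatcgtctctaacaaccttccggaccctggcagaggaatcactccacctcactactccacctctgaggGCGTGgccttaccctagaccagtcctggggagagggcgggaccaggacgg
Ak4: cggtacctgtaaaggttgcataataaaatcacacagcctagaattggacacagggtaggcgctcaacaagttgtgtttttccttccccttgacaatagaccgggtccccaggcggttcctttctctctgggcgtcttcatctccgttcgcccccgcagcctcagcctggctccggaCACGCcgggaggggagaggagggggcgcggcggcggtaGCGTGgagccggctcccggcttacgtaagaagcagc
The Slc16a3 window held ACGTG starting 27 and 14 bases before the start. The Ldha window held it on both strands at overlapping positions, as CACGTG, from 145 and from 48 bases before the start, and once more on the opposite strand from 34 bases. An entry was found for 37 of the 42 genes, and 30 of these windows (81.1%) held at least 1 match, compared to 58.1% of the 9755 windows of genes with TPM above 0 in all libraries and 38.6% of all 27025. Many of the 42 genes are named for being hypoxia-induced, so the share describes them and was not tested. A match of 5 letters is not evidence of binding.

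Levels are given in TPM, as deposited, a share of the library's transcripts that is already scaled to transcript length. TPM keeps no library depth, so depth is unknown and no counting error can be given. Of the 42 genes, 39 had TPM above 0 in all 28 libraries. Stc1, encoding a secreted glycoprotein, was listed at 0 in all 28, and Slc2a3, a neuronal-type glucose transporter, was listed at 0 in 16 and reached no more than 0.35 TPM. Car9, a membrane carbonic anhydrase, was listed at 0 in 1 library of subclone 2. In WT5 its TPM was 0.11, 1.26, 0.08 and 0.1, so that replicate 2 stood apart from the other 3, and no difference is drawn for it.

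The number of genes with TPM above 0 was 18681 to 19272 in polyclonal WT libraries, 16318 to 16536 in WT5 and 16270 to 17004 in the subclones. Polyclonal WT was sequenced with single-end reads of 50 bases and WT5 with paired-end reads of 150 bases, at a different time, so the read design and the line cannot be told apart in their comparison. The subclones stand in a table apart from WT5, so what all 5 subclones share against WT5 and what the tables differ in cannot be told apart. Collecting duct and epithelial markers summed to 1818 to 2106 TPM in polyclonal WT, 3179 to 3264 in WT5 and 1977 to 2472 in the subclones, so the sum in WT5 stood above that of all other libraries. Of these 16 genes 13 reached 1 TPM, but Aqp2, the water channel that defines principal cells, was listed at 0 in every library. In polyclonal WT 11 of them reached 1 TPM and in WT5 9 did. Avpr2, Gata3, Scnn1a and Scnn1g were lower in WT5 (below), so the sum does not stand for each marker. Summed markers reached no more than 2.12 TPM for fibroblasts, 0.29 for endothelium, 4.68 for leukocytes and 11.5 for proximal tubule.

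The first comparison addressed how a clone differs from the mixed line it came from. Differences are reported under a pair of rules, each fitted over all genes with TPM above 0 in the libraries compared and each requiring an adjusted p below 0.01. The 2-fold rule asks for a difference above 1 in log2(TPM) after the median of each library is set to 0, and the z-score rule, closer to the study's own, asks for more than 1 SD of the log2(TPM) values within a library, which here equals 8.56-fold. In WT5, the lactate exporter gene Slc16a3 rose most, and the glycolytic genes Gapdh and Eno2 rose with it, while Aldoc, Ak4, Pdk2, Slc16a1, Pdk3 and Hif1a fell. By the 2-fold rule 5 of the 40 genes that could be tested were higher (12.5%) and 6 were lower (15%), compared to 11.3% higher and 12% lower of all 13723 genes, or 23.2% in all. By the z-score rule Slc16a3 and Aldoc passed, 1 higher and 1 lower of 40 (5% in all), against backgrounds of 2.31% higher, 3.12% lower and 5.43% in all. Both shares lie near the background. Without centring the split was 7 higher and 5 lower, and with a pseudocount of 0.1 over genes with TPM above 0 in any library it was 15 higher and 2 lower. Both settings shift the centre that all genes share, and the shares of all genes under them are not given here. Without the size threshold 10 were higher and 19 lower, 29 in all, compared to 31.1% higher, 34.3% lower and 65.4% in all of the genes tested. The median difference of the 40 was -0.30 compared to -0.05 over all genes.

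**Figure D1:**
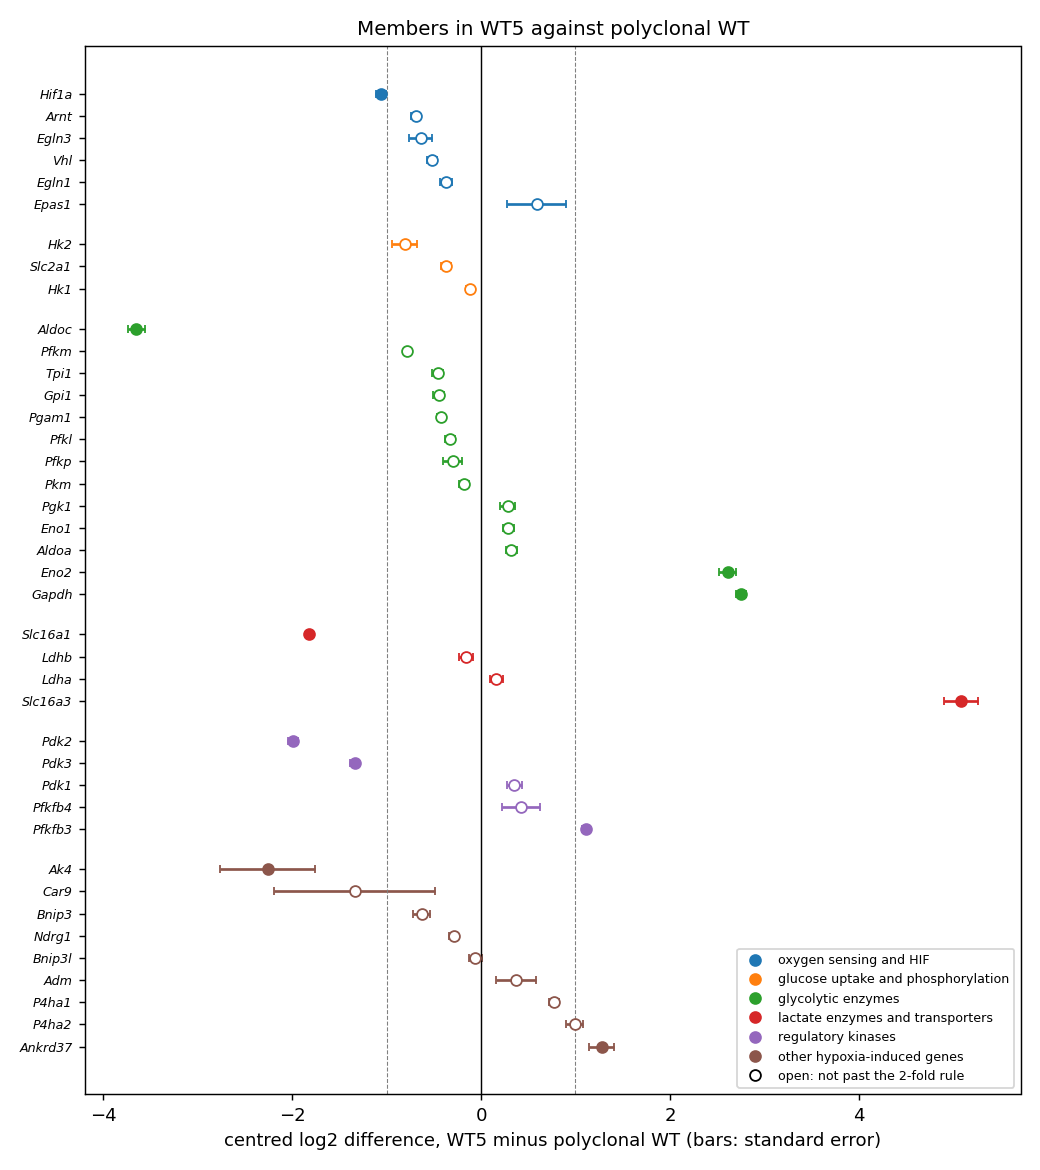
Centred log2 difference between WT5 and polyclonal WT (horizontal axis, WT5 minus polyclonal WT, bars are standard errors, n = 4 per group) for the 40 genes tested, coloured by role, with filled points past the 2-fold rule and dashed lines at 1 and -1. Slc16a3 lies far to the right at 5.08 and Aldoc far to the left at -3.65, with most other genes between the dashed lines.

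Slc16a3 (chr11:120948480-120960868) encodes MCT4, the exporter of lactate in strongly glycolytic cells. Its TPM was 1.72, 1.98, 1.41 and 2.56 in polyclonal WT and 83.59, 72.86, 80.94 and 72.05 in WT5, so every WT5 library lay far above every polyclonal library. The centred log2 difference was 5.08 ± 0.18 (SE, adjusted p = 2.0e-07). Slc16a1, which encodes the more widely expressed transporter MCT1, went the other way. It stood at 50.65 to 54.73 TPM in polyclonal WT and at 17.38 to 18.56 TPM in WT5, a log2 difference of -1.82 ± 0.04 (adjusted p = 1.2e-08). As a share of the summed TPM of both transporters, Slc16a3 made up 3.55% ± 0.91 (SD, n = 4) in polyclonal WT and 81.02% ± 1.38 in WT5. In bulk RNA, a lower level per cell and fewer cells with the transcript cannot be told apart.

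Gapdh (chr6:125161715-125166467), the glyceraldehyde-3-phosphate dehydrogenase often used as a loading reference, was not stable between the lines. Its TPM was 409.41, 431.38, 460.38 and 444.05 in polyclonal WT compared to 3607.07, 3377.10, 3776.72 and 3615.74 in WT5, a log2 difference of 2.75 ± 0.05 (adjusted p = 9.3e-09). Gapdh has many processed pseudogenes, and 27.2% of the 50-base stretches of its longest transcript recur in transcripts of 195 other genes. Summed with those genes, TPM was 829 ± 41.8 (SD, n = 4) in polyclonal WT and 4467 ± 210.5 in WT5, so the direction held. Eno2, the neuronal-type enolase, was at 3.46 to 4.55 TPM in polyclonal WT and at 28.29 to 33.57 TPM in WT5 (log2 difference 2.61 ± 0.09, adjusted p = 1.6e-07). The main enolase Eno1 remained far more abundant, so Eno2 held 0.60% of the summed enolase TPM in polyclonal WT and 2.92% in WT5.

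Aldoc (chr11:78322968-78327781), the brain-type aldolase, was the most reduced. Its TPM was 112.15, 128.23, 123.16 and 112.45 in polyclonal WT and 11.67, 11.22, 13.66 and 10.07 in WT5, a log2 difference of -3.65 ± 0.09 (adjusted p = 4.0e-08). Its z-score call was lost with a pseudocount of 0.1 over genes with TPM above 0 in any library (-0.87). Aldoa, the muscle-type aldolase and the main form in these cells, stood at 865 ± 31.1 TPM in polyclonal WT and 1323 ± 72.0 in WT5, a log2 difference of 0.32 that did not pass the size threshold. Aldoc therefore fell from 12.1% ± 0.62 to 0.87% ± 0.09 of the aldolase TPM. Of the other 10 glycolytic enzymes, none passed the 2-fold rule, with log2 differences from -0.78 (Pfkm, a phosphofructokinase) upward. For the phosphoglycerate kinase Pgk1 and for Eno1, more than 60% of the 50-base stretches recur in other genes, and summed with these, Pgk1 had 856 TPM in the polyclonal line and 763 in WT5, and Eno1 had 1332 and 1374. For Pgk1 the sum reverses the order of its own row, at 499.9 and 745.0 TPM.

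Among the kinases that hold back pyruvate dehydrogenase, Pdk2 was at 28.93 to 31.51 TPM in polyclonal WT and at 8.64 to 10.37 TPM in WT5, a log2 difference of -1.99 ± 0.05 (adjusted p = 4.6e-08). Pdk3 was at 37.06 to 39.81 and at 17.72 to 19.60 TPM, a difference of -1.34 ± 0.05 (adjusted p = 2.5e-07). With a pseudocount of 0.1 over genes with TPM above 0 in any library, the Pdk3 difference was -0.41 and that of Slc16a1 was -0.89, both under the size threshold. This setting centres each library on the median of another set of genes. Slc16a1, from -1.82, and Hif1a, from -1.06 to -0.13, moved by much the same amount as Pdk3, so the shift is not particular to these genes. Pdk1, the form known as a HIF target, was at 37.1 ± 2.92 and 57.6 ± 3.18 TPM and did not pass the size threshold, at 0.35 ± 0.08. Pdk1 therefore held 35.0% of the summed TPM of these 3 kinases in polyclonal WT and 67.3% in WT5. Pfkfb3, which makes the allosteric activator of phosphofructokinase, stood at 2.04 to 2.11 TPM in polyclonal WT and at 5.22 to 5.94 TPM in WT5 (1.11 ± 0.04, adjusted p = 3.3e-07). With a pseudocount of 1 the Pfkfb3 difference was 0.80, under the size threshold, and summed with every row that shares a 50-base stretch it turned to -0.05 (adjusted p = 0.221). However, 0.61% of the Pfkfb3 stretches are shared, and nearly all of that sum (227 TPM in polyclonal WT) comes from the other rows.

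In oxygen sensing, Hif1a fell and no other gene passed the 2-fold rule. Hif1a TPM was 111.04, 95.48, 99.00 and 99.63 in polyclonal WT and 58.16, 58.39, 62.26 and 59.25 in WT5, a log2 difference of -1.06 ± 0.05 (adjusted p = 1.2e-06). Without centring, the median of the log2 differences over all genes tested was 0.24. For Hif1a the difference without centring was -0.77, under the size threshold. With a pseudocount of 0.1 over genes with TPM above 0 in any library it was -0.13 (adjusted p = 0.0754), so the Hif1a call rests on the choice of genes and scale. Its relative Epas1 (HIF-2 alpha) was nearly absent at 0.165 ± 0.051 and 0.302 ± 0.106 TPM. Arnt, Vhl, Egln1 and Egln3 lay between -0.69 and -0.37 on the log2 scale in WT5, each with adjusted p below 0.01 but under the size threshold. In the group of further hypoxia-induced genes, Ankrd37, an ankyrin repeat protein known as a HIF target, was at 11.43 to 16.90 TPM and at 36.86 to 42.91 TPM (1.28 ± 0.13, adjusted p = 5.7e-05). Ak4, a mitochondrial adenylate kinase, was at 13, 10.81, 11.55 and 16.46 TPM in polyclonal WT and scattered over 6.61, 1.16, 4.13 and 3.54 TPM in WT5 (-2.26 ± 0.50, adjusted p = 0.0039). Its call was lost when polyclonal replicate 1 or 4 or WT5 replicate 4 was left out, with adjusted p of 0.0102 to 0.0129. It was also lost under an unequal-variance test (adjusted p = 0.032) and over genes with TPM above 0 in any library (-1.30, adjusted p = 0.0396). The collagen prolyl hydroxylase subunits P4ha1 and P4ha2 stood higher in every WT5 library, at 0.77 and 0.99, without reaching the size threshold.

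Genes of the same pathways outside the 42 moved as follows in WT5 by the 2-fold rule, by which 11.3% of all genes were higher and 12% lower. These lists are short, and their counts were not tested against those shares. Of 26 other hypoxia-induced genes tested, 8 rose and 1 fell, led by the secreted glycoprotein Stc2, which stood at 0.34 ± 0.12 TPM in polyclonal WT, and at 75.9 ± 3.35 TPM in WT5 (z-score difference 2.46), and with the nuclear receptor Rora past the z-score rule as well (1.15). Gbe1, the glycogen branching enzyme, fell by 3.12 on the log2 scale. Of 13 other HIF regulators, 2 rose and 1 fell, among them Arnt2, a paralog of Arnt, at 0.0275 ± 0.0096 and 4.89 ± 0.11 TPM (z-score difference 2.35), and Rwdd3 at -1.34. Of 13 other glycolysis isozymes and regulators 4 rose and 2 fell, led by Pdk4, the starvation-responsive kinase of pyruvate dehydrogenase, at 0.26 ± 0.06 and 3.16 ± 0.49 TPM (z-score difference 1.08), and by Galm, which fell by 1.85. Of 10 genes of pyruvate import and pyruvate dehydrogenase, 2 rose and 2 fell, with Pdha1 at 1.34 and Pdp1 at -1.26. In glycogen metabolism 1 of 8 genes fell (Phkb, -1.42). Of 11 collecting duct and epithelial markers tested, 1 rose, the keratin gene Krt8 (1.19), and 4 fell. Avpr2 (-8.56) and Gata3 (-6.94) also passed the z-score rule (-2.76 and -2.23), and the sodium channel subunits Scnn1g (-1.85) and Scnn1a (-1.27) are named after their values were seen. Of 3 proximal tubule markers, Cubn rose (4.30, z-score difference 1.39) and Aqp1 fell by 2.68. The part of these markers in the other results was not tested. None of 8 pentose phosphate genes, 3 gluconeogenic genes or 10 proliferation markers passed.

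The second comparison addressed how far clones re-derived from WT5 keep its profile. Against WT5 the subclones stood lower for most glycolytic and hypoxia-induced genes, and in each of them the share of the 39 tested genes that fell was well above that of all genes. By the 2-fold rule 5, 6, 6, 6 and 13 of 39 genes were lower in subclones 1 to 5, which is 12.8%, 15.4%, 15.4%, 15.4% and 33.3%. Of all 13860 genes tested, 1.54%, 1.42%, 1.56%, 1.75% and 1.62% were lower. Higher were 0, 0, 0, 1 and 1, namely Egln3 in subclone 4 and Epas1 in subclone 5, compared to 1.58%, 1.26%, 2.41%, 3.58% and 2.05% of all genes. In both directions 5, 6, 6, 7 and 14 passed, with 3.12%, 2.68%, 3.97%, 5.32% and 3.67% of all genes. In all, 18 of 39 genes (46.2%) passed in at least 1 subclone compared to 9.22% of all genes. The medians of the 39 differences were -0.44, -0.51, -0.51, -0.41 and -0.68, while those of all genes lay between -4.8e-05 and 0.030. The 5 comparisons share the same 4 WT5 libraries, so they are not independent of each other.

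Without the size threshold, 23, 24, 22, 25 and 24 genes were lower in subclones 1 to 5, compared to 14.3%, 14.5%, 9.74%, 17.2% and 12.1% of all genes. Higher were 5, 2, 2, 4 and 4, compared to 12.1%, 13.2%, 8.88%, 19.9% and 10.9%. At this p, 19 of the 39 genes (48.7%) were lower in each of the 5 subclones, compared to 4.11% of all genes. These were Egln1, Slc2a1, Hk2, Gpi1, Pfkl, Aldoa, Tpi1, Gapdh, Pgk1, Pgam1, Eno1, Pkm, Ldha, Slc16a3, Pfkfb3, Bnip3, Ankrd37, P4ha1 and P4ha2. They thus hold 9 of the 13 glycolytic enzymes, the main glucose transporter Slc2a1, hexokinase 2 and lactate dehydrogenase A. All 20 subclone libraries lay below all 4 WT5 libraries for 20 genes (51.3%), compared to 12.3% of all genes, and for none lay above, compared to 3.38%. Only Ndrg1, 1 of the further hypoxia-induced genes, was higher at this p in each subclone, 1 of 39 (2.56%) compared to 3.21%.

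**Figure D2:**
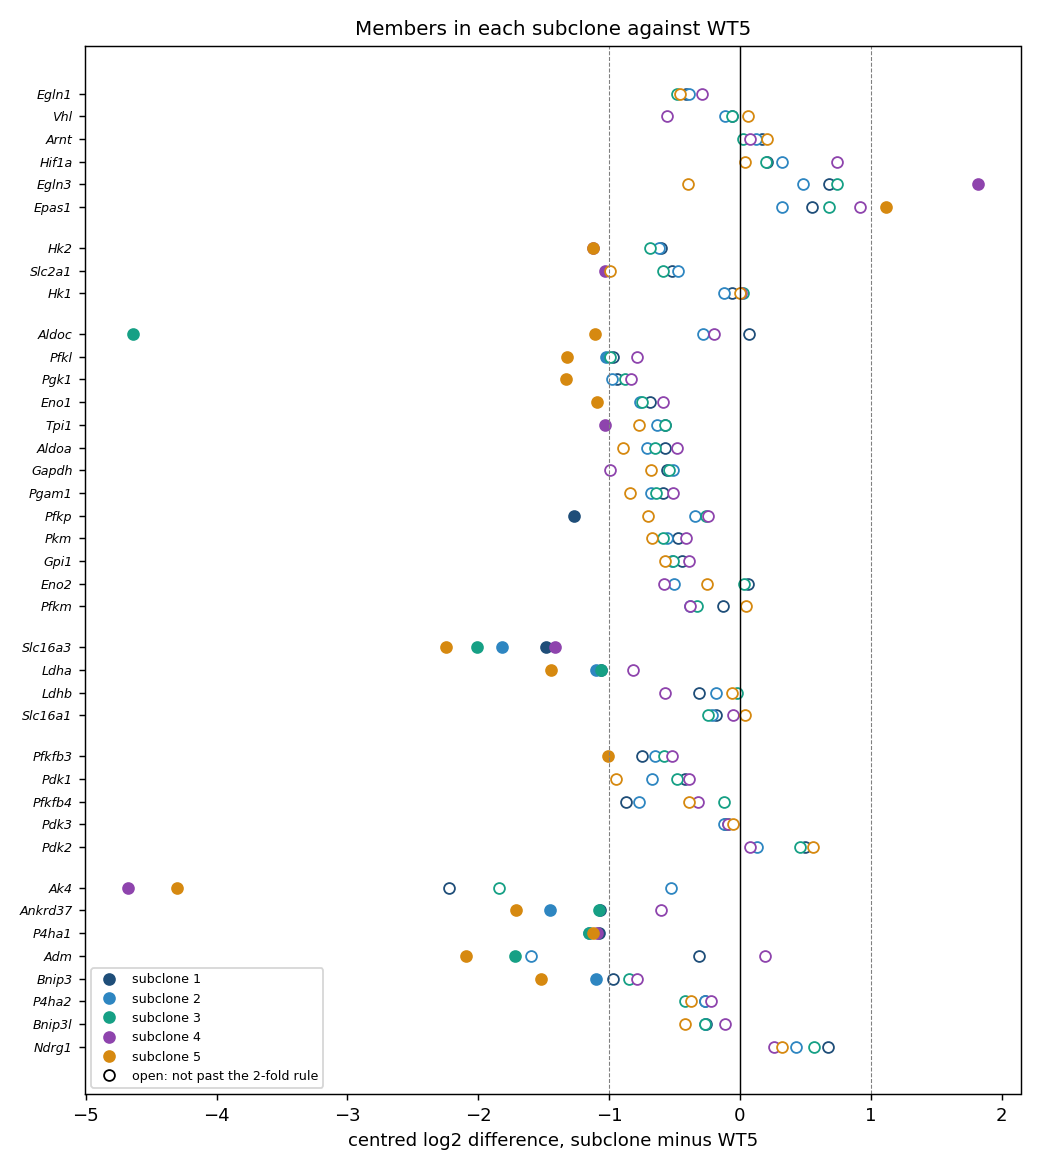
Centred log2 difference between each subclone and WT5 (horizontal axis, subclone minus WT5, n = 4 libraries per group) for the 39 genes tested, in role groups separated by gaps, with 1 colour per subclone, filled points past the 2-fold rule and dashed lines at 1 and -1. Nearly all points of the glycolytic enzymes lie left of 0, those of Slc16a3 and P4ha1 lie left of -1 in all 5 subclones, and Aldoc and Ak4 spread widely.

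Slc16a3 and P4ha1 passed the 2-fold rule in all 5 subclones, and Ldha and Ankrd37 in 4. In comparison, 0.231% of all genes were lower in all 5 and 0.534% in at least 4. Slc16a3 TPM was 20.59 to 30.40 in subclone 1, 17.11 to 23.47 in subclone 2, 16.27 to 19.22 in subclone 3, 25.13 to 29.13 in subclone 4 and 13.63 to 16.40 in subclone 5. All lay below WT5, at 72.05 or more, and all lay above polyclonal WT, at 2.56 or less. The log2 differences to WT5 were -1.48, -1.82, -2.01, -1.41 and -2.25, with SEs of 0.08 to 0.14. P4ha1 (chr10:59323296-59373304), a catalytic subunit of the enzyme that hydroxylates collagen prolines, was at 186.38 to 210.42 TPM in WT5 and at 76.14 to 97.96 TPM over all 20 subclone libraries. In polyclonal WT it was at 91.72 to 99.80 TPM. Its log2 differences to WT5 were -1.08, -1.15, -1.15, -1.09 and -1.12, nearly the same in each subclone.

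Ldha (chr7:46841475-46855627), the lactate dehydrogenase subunit that favours lactate formation, was at 1272.35, 1094.89, 1215.84 and 1179.89 TPM in WT5. Its TPM was 483.75 to 620.27 in subclone 1, 471.64 to 561.82 in subclone 2, 481.43 to 590.70 in subclone 3, 614.22 to 640.57 in subclone 4 and 376.95 to 424.45 in subclone 5. The differences of -1.06, -1.10, -1.06 and -1.44 passed in subclones 1, 2, 3 and 5, and that of -0.82 in subclone 4 did not reach the size threshold. The call in subclone 3 was lost under an unequal-variance test (adjusted p = 0.0188) and without replicate 1 or 4 of that subclone, where the difference came to -0.98 and -0.97. The call in subclone 1 was lost without its replicate 4, at -0.99. Ankrd37 (chr8:45996902-46005707) stood at 36.86 to 42.91 TPM in WT5 and at 9.83 to 28.08 TPM in the subclones, with differences of -1.07, -1.45, -1.08, -0.60 and -1.71, of which the one in subclone 4 did not pass. Without replicate 4 of subclone 1 its difference there was -0.99, so 3 rather than 5 genes passed in that subclone.

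**Figure D3:**
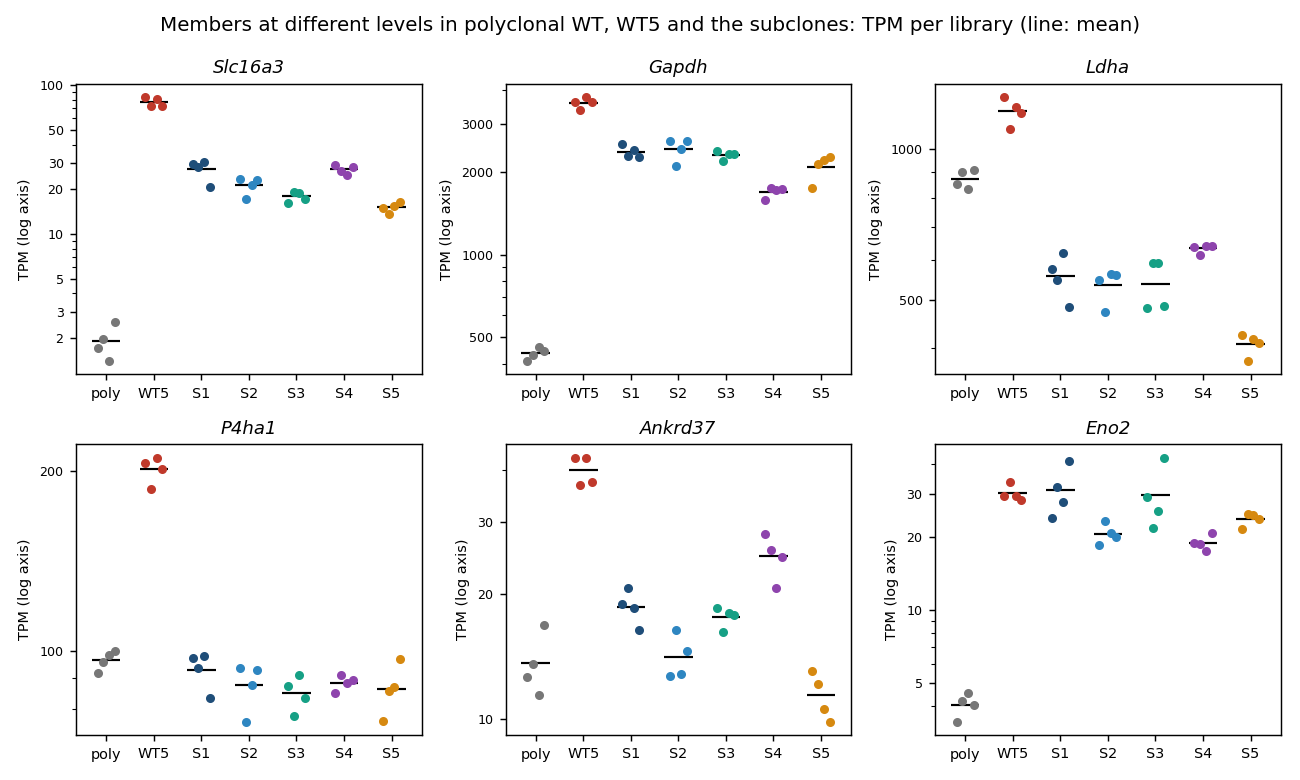
TPM per library (vertical axis, log scale) of Slc16a3, Gapdh, Ldha, P4ha1, Ankrd37 and Eno2 in polyclonal WT (poly), WT5 and subclones 1 to 5 (S1 to S5), 4 libraries each with the mean as a line. WT5 sits above every subclone library for all but Eno2, Slc16a3 and Gapdh of the subclones stay above polyclonal WT, and P4ha1 of the subclones lies at or below 97.96 TPM.

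In the subclones 10 of the 13 glycolytic enzymes lay below WT5 in all 5 comparisons, while Pfkm and Aldoc did so in 4 and Eno2 in 3. Summed over the 13 enzymes, TPM was 6655 ± 198 (SD, n = 4) in polyclonal WT, 10560.5 ± 454 in WT5, and 6837 ± 395, 6599 ± 603, 6446 ± 188, 5975 ± 168 and 5633 ± 488 in subclones 1 to 5. Gapdh made up much of the excess of WT5 over polyclonal WT. Without Gapdh the sums were 6219 ± 186 in polyclonal WT, 6966 ± 299.9 in WT5 and 3536 ± 258 to 4460 ± 286 in the subclones, so here the subclones lay below both lines. Each enzyme enters these sums by its own row. Summed with rows that share sequence, Eno1 had 1332 TPM in polyclonal WT and 1374 in WT5, and Pgk1 had 856 and 763. On the same sums Tpi1 had 1434 and 1252 TPM, Pgam1 had 1066 and 970, and Gpi1 had 361 and 286. Aldoa went the other way, at 870 and 1323, as did Pkm, at 1075 and 1127. The excess of WT5 over polyclonal WT without Gapdh thus depends on using the own rows, and it is not drawn as a result. The summed collecting duct and epithelial markers were also highest in WT5, at 3179 TPM or more compared to 2472 or less elsewhere. Of the 11 markers tested, though, 1 rose and 4 fell in WT5 against polyclonal WT by the 2-fold rule. The part of these markers in this pattern was not tested. The sums describe shares of the transcript pool, and no test was made on them.

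**Figure D4:**
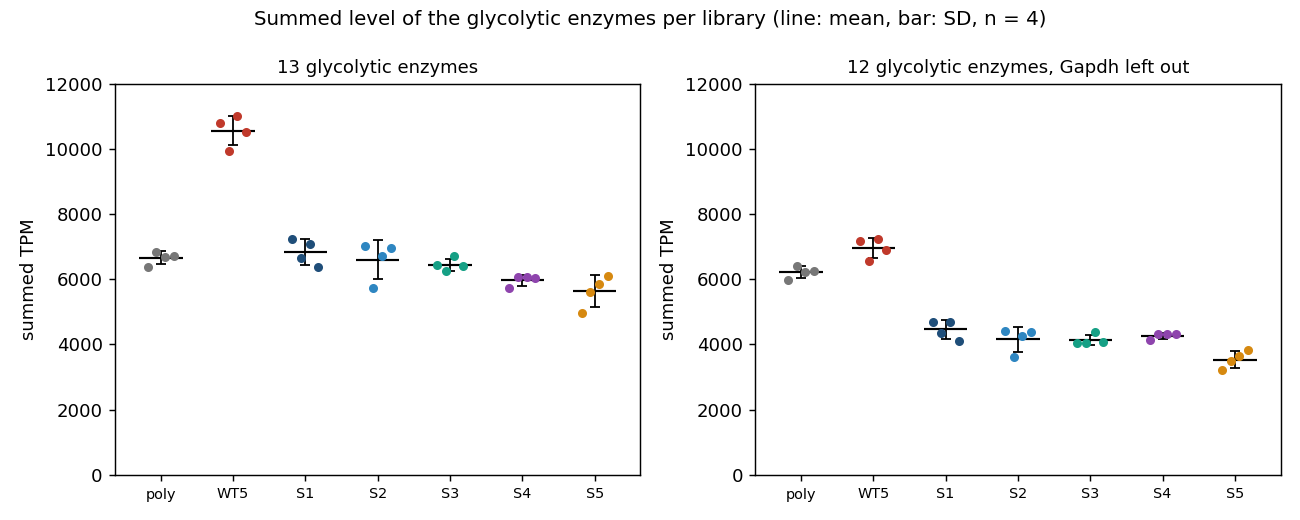
Summed TPM (vertical axis, from 0) of the 13 glycolytic enzymes (left) and of 12 without Gapdh (right) in each library of polyclonal WT (poly), WT5 and subclones 1 to 5 (S1 to S5), with the mean as a line and the SD as a bar. With Gapdh, WT5 alone stands high, at a mean of 10560.5, and without it polyclonal WT and WT5 both stand above the subclones. Each gene enters by its own row.

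Enzymes that passed the 2-fold rule differed by subclone. Pfkl, the liver-type phosphofructokinase, was at 186.55 to 205.69 TPM in WT5, at 81.67 to 103.23 TPM in subclone 2 and at 60.37 to 83.36 TPM in subclone 5, with differences of -1.02 and -1.32. Summed with every gene that shares a 50-base stretch, these were -0.21 and -0.25 and no longer passed. However, 0.054% of the Pfkl stretches are shared, and most of that sum (593 TPM in WT5) comes from the other genes. Pgk1 and Eno1 passed in subclone 5 alone, at -1.33 and -1.09, and the triosephosphate isomerase Tpi1 in subclone 4 alone, at -1.03. Pfkp, the platelet-type phosphofructokinase, passed in subclone 1, at 14.02 to 17.44 TPM compared to 32.70 to 43.32 TPM in WT5 (-1.27 ± 0.12, adjusted p = 2.8e-04). Gapdh reached -0.99 in subclone 4, just short of the threshold, and lay between -0.68 and -0.51 in the others. Pkm, the pyruvate kinase, Pgam1, Gpi1 and Aldoa were lower in every subclone by 0.39 to 0.89, under the threshold.

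At the entry to the pathway, Slc2a1, encoding GLUT1, was at 128.43 to 140.63 TPM in WT5, at 60.54 to 64.08 TPM in subclone 4 and at 59.05 to 69.19 TPM in subclone 5. It passed in subclone 4 at -1.03 ± 0.04 and just missed the size threshold in subclone 5 at -0.99 ± 0.06. Hk2, the inducible hexokinase, was at 8.08 to 10.53 TPM in WT5 and at 3.35 to 4.66 TPM in subclones 4 and 5, with -1.12 in each. With a pseudocount of 1 the Hk2 difference was -0.95 in each and its calls were lost, and without WT5 replicate 1 that of Slc2a1 in subclone 4 no longer passed the size threshold (adjusted p = 4.5e-05). Hk1, the constitutive hexokinase, lay between -0.12 and 0.02 in the 5 subclones. Hk2 therefore held 17.7% of the TPM of both hexokinases in WT5, 25.6% in polyclonal WT, and 8.95% and 8.97% in subclones 4 and 5.

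Not all genes followed. The lactate dehydrogenase subunit Ldhb lay between -0.57 and -0.02, so Ldha held 92.8% of the summed TPM of both in WT5 and 83.2% ± 0.41 in subclone 5. Slc16a1 differed from WT5 by -0.24 to 0.04 and Pdk3 by -0.12 to -0.05, all under the size threshold. Pdk2 was higher in subclones 1 and 5 at adjusted p below 0.01, by 0.50 and 0.56, under the size threshold. Pfkfb3 passed as lower in subclone 5 alone, at -1.01. Its call was lost with a pseudocount of 0.1 (-0.98) or 1 (-0.78), and without WT5 replicate 3 or subclone 5 replicate 2 or 3. Bnip3, a mitophagy receptor, passed in subclones 2 and 5, at -1.10 and -1.52, whereas its relative Bnip3l lay between -0.42 and -0.11. Adm, the vasodilator peptide adrenomedullin, passed in subclones 3 and 5 at -1.72 and -2.09, at levels under 2 TPM in these groups. Both Adm calls were lost under the unequal-variance test (adjusted p = 0.0166 and 0.0564), and that of subclone 5 was also lost without any 1 of 7 of the 8 libraries.

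Among the oxygen sensors, Egln1, the main hydroxylase, was lower in each subclone by 0.29 to 0.48 and never reached the size threshold. Hif1a was higher in subclones 1, 2 and 4 at adjusted p below 0.01, by 0.21, 0.32 and 0.74. Egln3, the hydroxylase that is itself a HIF target, was at 2.71, 2.24, 3.20 and 2.97 TPM in WT5 and at 8.10, 9.45, 9.81 and 9.28 TPM in subclone 4, a difference of 1.82 ± 0.11 (adjusted p = 2.0e-05). It was also higher in subclones 1 and 3 at adjusted p below 0.01, by 0.68 and 0.74, under the size threshold. The Epas1 call in subclone 5 (1.12 ± 0.24, adjusted p = 0.0089) rests on TPM of 0.39 to 0.75 compared to 0.23 to 0.46 and was lost at either pseudocount. It was also lost without centring (limma adjusted p = 0.0234) and under the unequal-variance test (adjusted p = 0.03). Leaving out WT5 replicate 1, 3 or 4 or subclone 5 replicate 2, 3 or 4 lost it as well (adjusted p 0.0207 to 0.0276).

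By the z-score rule, whose threshold is about 8-fold here, 0.144% to 0.202% of all genes passed in a subclone and 0.613% in at least 1. Of the 39 genes, 2 (5.13%) passed in at least 1, Aldoc in subclone 3 (z-score difference -1.59) and Ak4 in subclones 4 (-1.64) and 5 (-1.47). The Ak4 calls were lost with a pseudocount of 1 (-0.84 and -0.82) and over genes with TPM above 0 in any library (-0.98 and -0.93). That of subclone 4 was also lost with the replicate block (adjusted p = 0.0139) and that of subclone 5 under the unequal-variance test (adjusted p = 0.0106). No gene of the list passed in subclones 1 and 2, against backgrounds of 0.152% and 0.144%. At 1 gene each in subclones 3, 4 and 5, the share was 2.56%, compared to 0.173%, 0.202% and 0.173% of all genes. All were lower, and the lower backgrounds in subclones 1 to 5 were 0.137%, 0.123%, 0.115%, 0.13% and 0.166%.

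Related genes outside the 42 gave these counts against WT5 by the 2-fold rule. Of all genes, 1.54%, 1.42%, 1.56%, 1.75% and 1.62% were lower in subclones 1 to 5. Higher were 1.58%, 1.26%, 2.41%, 3.58% and 2.05%. Of 27 other hypoxia-induced genes tested, 0, 3, 2, 0 and 3 were lower in subclones 1 to 5 and none was higher. Vegfa, the vascular growth factor, passed in subclones 2, 3 and 5, at -1.14, -1.04 and -1.05. Its TPM was 15.97 ± 2.09 in polyclonal WT, 68.5 ± 5.48 in WT5 and 29.9 ± 2.50 to 35.0 ± 2.73 in the subclones. The largest fall in this list was that of Vegfa in subclone 2 and that of Fam162a in subclone 5 (-1.26). Stc2 and Rora, both past the z-score rule in WT5, did not pass in any subclone, at -0.48 to 0.10 and -0.15 to -0.04. Of 13 other glycolysis isozymes, Pgam2 was lower in subclones 1 and 5 (-1.23 and -2.45) and Pdk4 in subclone 3 (-1.03). None of 13 other HIF regulators, 8 pentose phosphate genes, 4 gluconeogenic genes, 10 pyruvate dehydrogenase genes, 8 glycogen genes or 10 proliferation markers passed in any subclone. Of the collecting duct and epithelial markers, Krt19 was lower in subclones 2 and 4 (-1.06 and -1.05) and Scnn1g higher in subclone 5 (1.82). Of the proximal tubule markers, Lrp2 was higher in subclones 1 and 5 (1.16 and 1.22) and Aqp1 in subclone 4 (1.45). The part of these markers in the other results was not tested.

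The third comparison was among the subclones themselves, which stand in 1 table. Of the 39 genes, 6 (15.4%) differed by the 2-fold rule, an F test over the 5 subclones with a range of their means above 1, compared to 5.46% of all 14031 genes. They were Aldoc (range 4.71), Ak4 (4.15), Adm (2.28), Egln3 (2.22), Ankrd37 (1.11) and Pfkp (1.03). Without the size threshold 25 of 39 (64.1%) differed compared to 24.3% of all genes. The other 33 genes had ranges under the size threshold or an adjusted p of 0.01 or more.

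**Figure D5:**
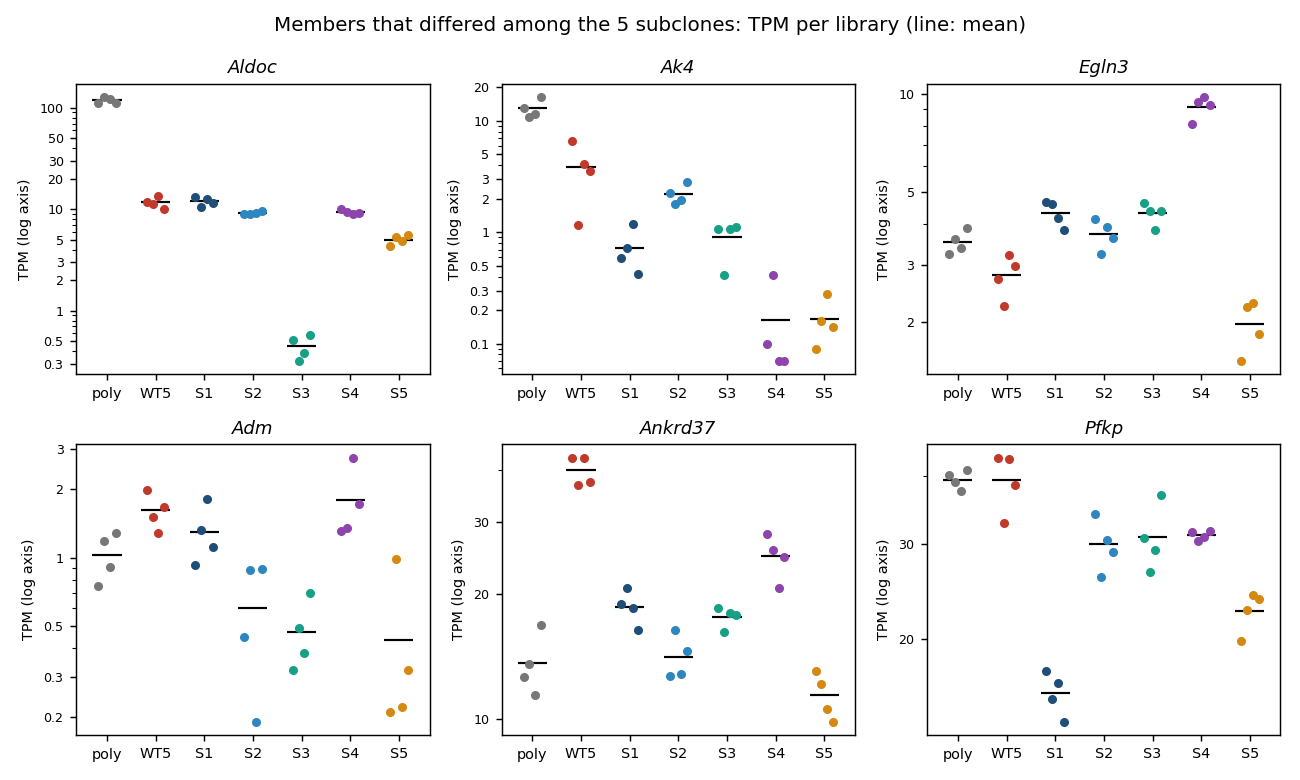
TPM per library (vertical axis, log scale) of the 6 genes that differed among the subclones, in polyclonal WT (poly), WT5 and subclones 1 to 5 (S1 to S5), 4 libraries each with the mean as a line. Aldoc is lowest in subclone 3, Ak4 is lowest in subclones 4 and 5, Egln3 is highest in subclone 4, and Pfkp is lowest in subclone 1.

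Aldoc was at 0.51, 0.32, 0.38 and 0.57 TPM in subclone 3. It was at 10.49 to 13.30 TPM in subclone 1, 8.90 to 9.60 in subclone 2, 9.04 to 10.17 in subclone 4 and 4.35 to 5.59 in subclone 5. Subclone 3 lay below each of the other 4 by a log2 difference of 3.54 to 4.71 in size, and subclone 5 lay below subclone 1 (-1.18 ± 0.10, adjusted p = 5.7e-07). Aldoc thus held 0.06% of the aldolase TPM in subclone 3 and 0.75% to 1.35% in the others.

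Ak4 (chr4:101419277-101466995) was at 0.10, 0.41, 0.07 and 0.07 TPM in subclone 4 and at 0.09, 0.16, 0.28 and 0.14 TPM in subclone 5. In subclone 2 it was at 1.78 to 2.81 TPM, and in subclones 1 and 3 at 0.42 to 1.18 and 0.41 to 1.12 TPM. Subclones 4 and 5 passed against each of subclones 1, 2 and 3, with differences of -2.07 to -4.15, while subclones 1 to 3 did not pass against each other. All 8 of these libraries of subclones 4 and 5 were at or below 0.41 TPM, which is a low level.

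Egln3 (chr12:54178981-54203860) in subclone 4 exceeded each of the other 4, with differences of 1.14, 1.34 and 1.08 to subclones 1, 2 and 3. Subclone 5 was lowest at 1.52 to 2.29 TPM and lay below subclones 1, 3 and 4, the last by 2.22 ± 0.10 (adjusted p = 1.3e-10). Pfkp in subclone 1 lay below subclones 3 and 4, by 1.02 and 1.03, and its call over all subclones was lost with a pseudocount of 1, without centring and without subclone 1 replicate 4 (ranges 0.99, 0.97 and 0.96). Ankrd37 and Adm passed between subclones 4 and 5 alone, at -1.11 ± 0.14 and -2.28 ± 0.50. The Adm call over all subclones was lost with a pseudocount of 1 (range 0.95) and without replicate 3 or 4 of subclone 4 or replicate 1, 3 or 4 of subclone 5 (adjusted p 0.0104 to 0.0152). Between subclones 1 and 2, 1 and 3 apart from Aldoc and Pfkp, and 2 and 3 apart from Aldoc, no gene of the list passed, against 1.08%, 1.22% and 1.18% of all genes. For subclone 4 against 1, 2 and 3 the backgrounds were 2.06%, 2.12% and 2.00%, and for subclone 5 against 1, 2, 3 and 4 they were 1.66%, 1.70%, 1.72% and 2.72%.

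Ordered by group means, WT5 was the highest of the 7 groups for 16 of the 39 genes and polyclonal WT for 18. Over all genes with TPM above 0 in every library, these shares were 30.4% and 27.1%. All 4 WT5 libraries lay above both polyclonal WT and all subclone libraries for 12 genes (30.8%, compared to 9.67% of all genes), namely Aldoa, Gapdh, Pgk1, Eno1, Pkm, Ldha, Slc16a3, Pdk1, Pfkfb3, Ankrd37, P4ha1 and P4ha2. Against polyclonal WT, all 20 subclone libraries lay below for 20 genes (51.3%) and above for 6 (15.4%), compared to 17.8% and 30.1% of all genes, and WT5 libraries lay above for 16 of 40 and below for 15, compared to 48.5% and 23.8%. All 20 subclone libraries lay below both lines for 11 genes (28.2%, compared to 2.41%), namely Egln1, Slc2a1, Hk2, Gpi1, Pfkl, Tpi1, Pgk1, Pgam1, Pkm, Ldha and Bnip3. Pgk1, Pkm and Ldha belong to both. Summed with rows that share sequence, the order of WT5 and polyclonal WT turned for Pgk1 and their ranges overlapped for Pkm (1038 to 1102 TPM in polyclonal WT, 1073 to 1171 in WT5), while the subclones stayed below both for all 3. Of the 12 genes, Eno1 overlapped as well (1293 to 1379 TPM in polyclonal WT, 1287 to 1450 in WT5). The Pfkfb3 sum in WT5 (260 to 276 TPM) overlapped that in every subclone, such as subclone 1 (256 to 274) and subclone 5 (226 to 281), with 0.61% of its stretches shared. Among subclones, subclone 5 was lowest for 18 of the 39 genes, compared to 31.4% of all genes, and for 7 of the 13 glycolytic enzymes.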

How the data were processed

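RNA was sequenced from 28 mIMCD-3 libraries. The TPM values deposited by the authors were made, per the methods and labels, with STAR 2.7.3a on GRCm38 with Ensembl 81 and RSEM 1.3.1. They came in 2 tables, one for polyclonal WT and WT5 and one for the subclones, and every column named a sample. Ensembl IDs were matched to symbols, and the 42 genes and all gene lists were chosen with earlier results of these data known. Values were taken as log2(TPM) without a pseudocount over genes with TPM above 0 in every library compared, then centred on the library's median or z-scored within the library. They were tested with limma 3.58.1 in R 4.3.3, with Benjamini-Hochberg adjustment over all genes tested. Per-library values or their ranges are given for most members past a rule and for the largest differences between WT5 and polyclonal WT. Some members past a rule in the subclones, such as Tpi1, Eno1 and Bnip3, are given by log2 differences alone. Genes of other lists are named where they passed the z-score rule or led their list under the 2-fold rule. The study calls replicates biological in one place and technical in another, so p-values measure the spread between libraries, which may be technical. Same-numbered libraries did not deviate together (correlations -0.041 to 0.051), so the main fits have no replicate block. On simulated data with 200 planted 4-fold changes among the real genes, 95% were recovered for WT5 against polyclonal WT. Changes were planted only in genes with a mean log2(TPM) above 0. The simulation therefore does not cover genes at low TPM or changes near 2-fold. Alternatives covered pseudocounts, filters, centring, an unequal-variance test, shared sequence, the replicate block and leaving out each library. The values of 1 gene of these lists are not reported here.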

Additional observations from a re-analysis of the deposited data

Results flagged for a closer look

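Of 168 groups of 4 libraries, for 24 named genes, 11 held a library that stood far from its group, and chance alone gives about 1 in 20. The TPM that stood apart was 0.54 for Epas1, 76.01 for Slc2a1 and 0.41 for Ak4 in subclone 3. In subclone 4 it was 1586.96 for Gapdh, 614.22 for Ldha, 82.53 for Bnip3 and 0.41 for Ak4. In subclone 2 it was 484.43 for Eno1, 471.64 for Ldha and 13.8 for Pdk3, and in subclone 5 it was 0.99 for Adm.

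For 6 genes the subclones differed by the F test with limma and had a range of means above 1, out of 25 that differed by the F test alone. The ranges of the subclone means on the log2 scale were 4.71 for Aldoc, 4.15 for Ak4, 2.28 for Adm, 2.22 for Egln3, 1.11 for Ankrd37 and 1.03 for Pfkp.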

How the results depend on the processing

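Between WT5 and polyclonal WT, the count by the z-score rule went from 2 to 4 with a pseudocount of 1 or a mean TPM of at least 1, and to 1 with a pseudocount of 0.1 over genes above 0 in any library. By the 2-fold rule the last setting gave 17 in place of 11, and no size threshold gave 29. In the subclones, 2 genes by the z-score rule became 1 with a pseudocount of 1, 4 with a mean TPM of at least 1, 1 over genes above 0 in any library and 1 with the other subclones in place of WT5. The 18 genes by the 2-fold rule became 36 without the size threshold and 4 against the other subclones. The shares of all genes passing in at least 1 subclone under these settings are not given. Neither count is therefore read as a result about these genes. For subclones 1 to 5 these counts were 28, 26, 24, 29 and 28 without the size threshold and 1, 2, 1, 4 and 2 against the other subclones. Subclone 5 had 9 in place of 14 with a pseudocount of 1. Without the size threshold 25 genes differed among the subclones, compared to 24.3% of all genes, and 31 between at least 1 pair. For most settings in this section the shares of all genes are not given. The counts show how the calls depend on the setting and nothing about these genes in particular.

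With the other subclones in place of WT5, signs turned for P4ha1 (0.05), Slc16a3 (0.39), Ankrd37 (0.15) and Ldha (0.04) in subclone 1, Ankrd37 (0.13) and Ldha (0.05) in subclone 3, P4ha1 (0.03) and Slc16a3 (0.48) in subclone 4 and Aldoc (0.16) in subclone 5. By construction this setting compares subclones with each other. Summed with every row sharing a 50-base stretch, Pfkfb3 turned to -0.05 between WT5 and polyclonal WT and to 0.09 in subclone 5, with 0.61% of its stretches shared. A sum limited to rows sharing a larger part of the stretches, chosen after seeing the data, gave 11 and 19 genes in place of 11 and 18.

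Leaving out 1 library gave 10 to 13 genes between WT5 and polyclonal WT by the 2-fold rule and 2 by the z-score rule. For subclones 1 to 5 it gave 3 to 7, 5 to 7, 5 to 8, 6 to 9 and 11 to 14, with 16 to 19 in at least 1 subclone and 2 by the z-score rule. The 3 came without subclone 1 replicate 4. Among subclones and between pairs it gave 5 to 6.

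The replicate numbers share no stated source, and with the replicate block the counts were 11 between WT5 and polyclonal WT, 5, 6, 4, 6 and 13 in subclones 1 to 5, 17 in at least 1 subclone, 6 among subclones and 6 between pairs, with 2 in each comparison by the z-score rule. TPM keeps no depth, so low values such as those of Epas1, Adm and Ak4 have no counting error.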
